A study of Mus musculus with 6 samples.

Results

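The collagen genes are described here in the dissected larger proximal airways of mice. A gene was taken as a collagen when its annotated symbol was Col, a number, the letter a and a number, and when its array row named that gene alone. This found 46 rows for 44 genes, out of 19938 genes with such a row, and a gene with several rows was represented by its brightest one. The series compared 3 control arrays, from mice carrying the Scgb1a1-Cre driver, with 3 mutant arrays, from mice carrying the same driver together with floxed Foxp1 and floxed Foxp4 on both chromosomes (Scgb1a1-cre:Foxp1flox/flox:Foxp4flox/flox). All mice were 9 weeks old and of mixed C57BL/6 and 129X1 background. Scgb1a1-Cre acts in club cells, so cells of the airway wall that are not of that lineage, fibroblasts, smooth muscle and vessels among them, keep both genes. RNA came from hand-dissected airway in stained frozen sections, a tissue of many cell types.

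Collagens are proteins of 3 chains wound into a helix of repeated glycine triplets. Fibrillar collagens give the airway wall its tensile strength, network collagens build the basement membrane under the epithelium and around smooth muscle and vessels, and cartilage has fibrils of its own. The chains are hydroxylated and folded in the cell, trimmed and cross-linked outside it, and cut by metalloproteinases. Thickening of the collagen layer beneath the epithelium is a known feature of asthmatic airways, the setting that the series names.

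Values are log2 expression values as deposited, so a difference of 1 is a doubling, and differences are mutant minus control. No collagen gene passed limma's test at a Benjamini-Hochberg adjusted p under 0.05 over all genes: the count was 0 of 44, where 0.266% of all genes passed. At an unadjusted p under 0.05 limma counted 7 of 44 (15.9%), all higher in mutants, beside 10.1% of all genes in either direction, 5.9% higher and 4.17% lower. Of the 44 genes, 36 (81.8%) had a difference above 0, against 54.6% of all genes. The median difference was 0.085 over the collagens and 0.016 over all genes. Every mutant array lay above every control array for 12 collagen genes (27.3%, against 9.33% of all genes). The opposite held for 1 collagen gene (2.27%, against 5.64%). For some of the 12 genes the margin was very small, as for Col4a1 (control 3 at 7.786, mutant 3 at 7.7862). Shares over the collagens are descriptions without a test, since collagen genes of the same tissue do not vary independently.

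**Figure D1:**
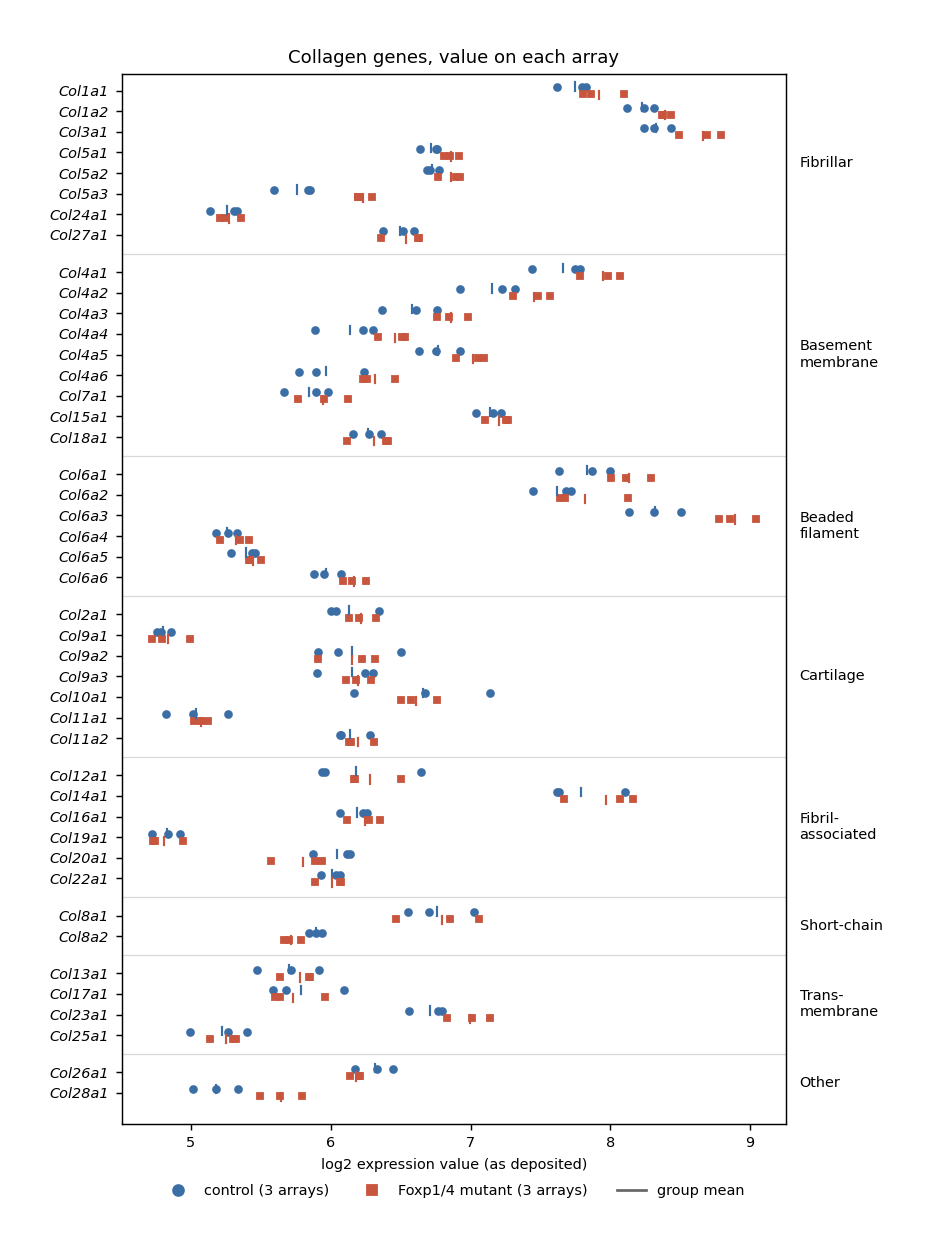
Each row is 1 collagen gene and each mark 1 array, with circles for the 3 controls and squares for the 3 Foxp1/4 mutants on a log2 scale; short vertical lines are group means, and genes are grouped by class. The squares of Col6a3, Col5a3 and Col28a1 stand clear of the circles, whereas those of the cartilage class mix with them. Positions along the axis cannot be compared between genes, since each gene has its own probes.

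The count above 0 rested in part on single control arrays. Relative to each gene's mean over the 6 arrays, the median collagen stood at 0.040 in control 1, -0.14 in control 2 and -0.082 in control 3. In the mutants it stood at 0.12, 0.044 and 0.033, so control 1 lay with the mutants. The same measure over all genes stayed between -0.026 and 0.021. Without control 2, 27 of 44 collagens were above 0, with a median of 0.047. Without control 1 there were 41, with a median of 0.16. Without controls 2 and 3 together, which leaves control 1 alone and assumes that it varies like the mutants, 22 of 44 were above 0 and the median was -0.0027. The 7 genes at an unadjusted p under 0.05 became 4 without control 2, control 3 or mutant 2 and 11 without control 1.

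Markers of other cell types differed between arrays of the same group. The 5 measured B cell genes averaged 6.34, 9.74 and 9.47 in controls 1 to 3 and 5.68, 8.15 and 5.93 in mutants 1 to 3, with all 5 lower in mutants by group means. The 4 measured adipocyte genes averaged 9.96 in control 1, 7.53 and 8.29 in the other two controls and 7.93 to 8.88 in the mutants. Cardiac muscle, of which 6 genes were measured, averaged 11.9 in control 1 and 11.7 in mutant 2, against 9.02 to 10.6 on the other 4 arrays. Of 4 mesothelial genes 3 were below 0, and Msln, mesothelin, read 9.97, 10.9 and 10.1 in controls and 8.85, 7.53 and 7.48 in mutants, each mutant below each control (difference -2.38, SE 0.42, unadjusted p = 0.000996, limma adjusted p = 0.122). The mesothelial mean, which includes Msln, was 6.48 to 7.11 in controls and 5.60 to 6.39 in mutants. The other mesothelial genes differed far less, Upk3b by -0.22, Lrrn4 by -0.16 and Wt1 by 0.13 (limma unadjusted p = 0.694, 0.621 and 0.525). The part of these cells in the collagen values was not tested. In such bulk samples fewer cells of a type and less RNA per cell cannot be told apart. Across the 19938 genes, control 1 had a mean correlation of 0.975 with the other controls and 0.981 with the mutants. The 6 club and ciliated epithelial markers averaged between 10.5 and 10.9 on every array. Without another tissue for comparison, these levels cannot show that the samples held proximal airway alone. The targeted genes Foxp1 and Foxp4 were lower in all 3 mutants than in all 3 controls (differences -0.23 and -0.69, limma adjusted p = 0.444 and 0.339). Permuting the arrays exactly gave a two-sided p = 0.1 for both genes, which 3 arrays against 3 cannot undercut.

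Promoter sequences of 6 members are shown, and their part in the values was not tested. The members are Col1a2 and Col3a1 of the main fibrils, and Col5a3 and Col6a3 with the largest differences of their classes. Col4a5 and Col4a6 are neighbours that point away from each other on the X chromosome. The stretches are RefSeq sequences of build GRCm38.p6, read 5′ to 3′ toward the gene. Each shows the bases upstream of the start site that lie outside the annotated gene. Capitals mark a CCAAT box (CCAAT), a GC box (GGGCGG) or a TATA box (TATAAA) on either strand.
Col1a2, chr6:4505368-4505617, plus strand: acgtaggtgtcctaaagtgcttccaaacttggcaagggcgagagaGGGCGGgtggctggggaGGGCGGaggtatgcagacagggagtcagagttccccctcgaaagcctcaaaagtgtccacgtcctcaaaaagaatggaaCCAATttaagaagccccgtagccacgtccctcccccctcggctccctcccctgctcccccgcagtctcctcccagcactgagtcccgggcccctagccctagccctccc
Col3a1, chr1:45311288-45311537, plus strand: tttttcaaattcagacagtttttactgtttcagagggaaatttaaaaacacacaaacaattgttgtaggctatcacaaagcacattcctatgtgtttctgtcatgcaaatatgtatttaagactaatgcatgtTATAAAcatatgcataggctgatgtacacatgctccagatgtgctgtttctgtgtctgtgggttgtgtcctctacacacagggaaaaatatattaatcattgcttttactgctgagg
Col5a3, chr9:20815118-20815317, minus strand: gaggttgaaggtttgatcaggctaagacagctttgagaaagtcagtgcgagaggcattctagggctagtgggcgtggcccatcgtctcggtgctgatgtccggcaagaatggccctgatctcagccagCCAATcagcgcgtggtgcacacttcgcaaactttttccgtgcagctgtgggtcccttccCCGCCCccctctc
Col6a3, chr1:90844002-90844221, minus strand: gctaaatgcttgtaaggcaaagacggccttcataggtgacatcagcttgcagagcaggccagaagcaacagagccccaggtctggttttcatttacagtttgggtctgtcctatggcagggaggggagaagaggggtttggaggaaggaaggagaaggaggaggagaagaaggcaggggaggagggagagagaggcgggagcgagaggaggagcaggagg
Col4a5, chrX:141475169-141475369, plus strand: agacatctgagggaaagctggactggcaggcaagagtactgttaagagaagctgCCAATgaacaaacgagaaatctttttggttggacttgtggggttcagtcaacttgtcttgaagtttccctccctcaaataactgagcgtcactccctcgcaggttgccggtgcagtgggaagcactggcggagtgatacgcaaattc
Col4a6, chrX:141474096-141474326, minus strand: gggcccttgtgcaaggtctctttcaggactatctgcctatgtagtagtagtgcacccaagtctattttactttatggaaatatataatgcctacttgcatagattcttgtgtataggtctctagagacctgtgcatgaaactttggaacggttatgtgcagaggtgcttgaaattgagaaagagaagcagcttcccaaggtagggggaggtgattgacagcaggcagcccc
The Col1a2 stretch held 2 GC boxes and 1 CCAAT box, and Col5a3 held 1 of each. Col3a1 held 1 TATA box and Col4a5 held 1 CCAAT box. None of the 3 motifs stood in the stretches of Col6a3 and Col4a6. RefSeq windows were found for 35 of the 44 collagen genes, as 38 windows of 250 upstream bases. A GC box was present in 57.9% of these windows, against 32.7% of all 32851 windows of that length. For the CCAAT box the shares were 34.2% and 33.8%, and for the TATA box 13.2% and 12.4%. A match describes letters only and does not show a bound site.

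The fibrillar collagens of soft tissue all had a difference above 0 (8 of 8), with a median of 0.16, and none passed. Col3a1, the type III chain that forms fibrils together with type I, read 8.24, 8.43 and 8.31 in controls and 8.49, 8.79 and 8.69 in mutants. The groups did not overlap, with mutant 1 just above control 2. The difference was 0.33, or 1.26-fold with a 95% interval of 1.05 to 1.51 (SE 0.11, unadjusted p = 0.0193, limma adjusted p = 0.395). Col1a1, a chain of type I collagen, the main fibril of the wall, read 7.62, 7.83 and 7.80 against 7.86, 7.81 and 8.10. Its groups overlapped through mutant 2, and the difference was 0.17 (SE 0.11, adjusted p = 0.677). Col1a2, its partner chain, read 8.24, 8.31 and 8.12 against 8.37, 8.38 and 8.43, without overlap (difference 0.17, SE 0.083, adjusted p = 0.571).

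Type V collagen nucleates fibrils and limits their width. Its minor chain Col5a3 read 5.84, 5.59 and 5.85 in controls and 6.20, 6.19 and 6.30 in mutants. All 3 mutants stood well above the controls, and the difference of 0.47 (SE 0.099) corresponded to 1.38-fold with an interval of 1.17 to 1.63. It had the smallest p of any collagen (unadjusted p = 0.0026) and did not pass over all genes (limma adjusted p = 0.200). Over 13 other processing settings its difference stayed between 0.38 and 0.51 and its adjusted p between 0.0619 and 0.583. The main type V chains differed less: Col5a1 by 0.14 (adjusted p = 0.633) and Col5a2 by 0.14 (adjusted p = 0.65). Mutants and controls did not overlap for Col5a1 and did for Col5a2. The minor fibrillar chains Col24a1 (0.012) and Col27a1 (0.040) had intervals from -0.21 to 0.23 and from -0.23 to 0.31.

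Of the non-collagen fibroblast markers 4 of 10 were above 0, with a median of -0.19. Their mean level ranged from 9.01 to 9.46 in controls and from 8.93 to 9.19 in mutants. For smooth muscle 7 of 8 markers were above 0, with a median of 0.050 and mean levels of 10.4 to 10.9 in controls and 10.4 to 10.8 in mutants. No member of either list passed.

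**Figure D2:**
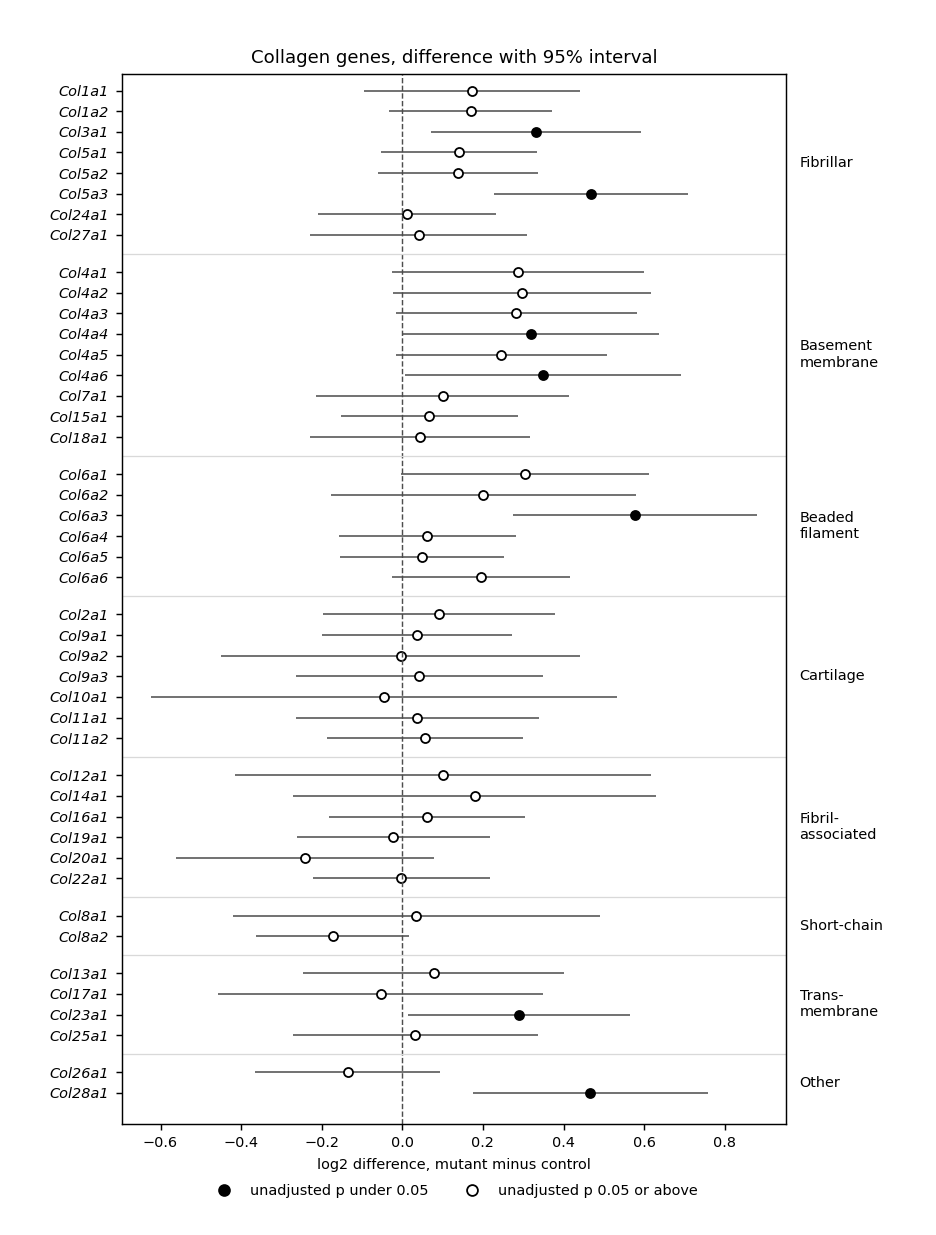
Points are log2 differences (mutant minus control) of the 44 collagen genes by class, bars their 95% intervals from limma's moderated standard errors, and filled points the 7 genes at an unadjusted p under 0.05. The type IV chains Col4a1 to Col4a6 lie together between 0.25 and 0.35, and the cartilage genes lie around 0.

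The 9 collagens of the basement membrane and its anchorage were all above 0 as well, with a median of 0.28. The largest differences of the class were those of type IV collagen, the network of every basement membrane, whose 6 chain genes differed by 0.25 to 0.35 (adjusted p from 0.485 to 0.534). They lie as adjacent genes that point away from each other, Col4a1 with Col4a2, Col4a3 with Col4a4 and Col4a5 with Col4a6. Col4a1, of the chain pair found in all basement membranes, read 7.75, 7.44 and 7.79 in controls and 8.07, 7.98 and 7.79 in mutants. Col4a2 read 7.32, 6.92 and 7.22 against 7.57, 7.48 and 7.30. For both genes control 2 was lowest and mutant 3 met the highest control. The differences were 0.29 (SE 0.13, unadjusted p = 0.0641) and 0.30 (SE 0.13, unadjusted p = 0.0618).

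Col4a3 and Col4a4 encode chains of a more restricted network, known from the kidney glomerulus and the alveolar wall. Col4a3 read 6.76, 6.37 and 6.61 in controls and 6.85, 6.98 and 6.76 in mutants. Col4a4 read 6.23, 5.89 and 6.30 against 6.51, 6.53 and 6.34. Control 2 was again lowest, and both genes had groups that did not overlap. For Col4a3 the margin was very small, with control 1 at 6.7579 and mutant 3 at 6.7598. Their differences were 0.28 (unadjusted p = 0.0587) and 0.32 (unadjusted p = 0.0475). Alveolar type 1 markers stood on the same side: 5 of 6 were above 0 with a median of 0.35, and their mean level was 9.36 to 9.89 in controls and 9.79 to 9.97 in mutants. Ager, which defines that cell type, read 11.4, 10.7 and 11.1 in controls and 11.5, 11.5 and 11.3 in mutants. The part of alveolar tissue in these values was not tested.

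Col4a5 and Col4a6 encode chains that also serve the basement membranes of smooth muscle and epithelium. Col4a5 read 6.92, 6.63 and 6.76 in controls and 6.90, 7.05 and 7.10 in mutants, overlapping through mutant 1. Col4a6 read 6.24, 5.89 and 5.77 against 6.26, 6.23 and 6.46, overlapping through control 1. The Col4a6 difference of 0.35 (SE 0.14, unadjusted p = 0.0456) became 0.079 without controls 2 and 3 and 0.48 without control 1. The median of the whole class was 0.18 without control 2 and 0.091 without controls 2 and 3. Basement membrane collagens outside type IV differed less. Col7a1, the anchoring fibril beneath epithelium, differed by 0.10 (interval -0.21 to 0.41). Col15a1 and Col18a1, which carry sugar chains and release angiogenesis-inhibiting fragments, differed by 0.067 (-0.15 to 0.28) and 0.044 (-0.23 to 0.31).

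Type VI collagen forms beaded filaments that join cells to fibrils. Its Col6a3 chain had the largest difference of the 44 genes. Col6a3 (probe set 10356520) read 8.50, 8.31 and 8.13 in controls and 9.04, 8.78 and 8.86 in mutants, so the lowest mutant stood clear of the highest control. The difference was 0.58 (SE 0.12), or 1.49-fold with an interval of 1.21 to 1.84 (unadjusted p = 0.00294, limma adjusted p = 0.201). It passed with array weights (difference 0.68, adjusted p = 0.0421). Those weights were 2.38 for control 3 and 2.19 for mutant 3, against 0.484 to 0.996 on the other arrays, so that fit leaned most on these 2 arrays. Col6a3 also passed in 1 setting added after seeing the data, without control 1 and mutant 2 (0.73, adjusted p = 0.0321). In that setting 963 of all 19938 genes passed. Over the 13 other settings the adjusted p ranged from 0.0421 to 0.56 and the difference from 0.49 to 0.68.

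The partner chains Col6a1 and Col6a2, which combine with Col6a3 in the standard molecule, differed less. Col6a1 read 7.995, 7.87 and 7.63 in controls and 8.29, 8.002 and 8.11 in mutants (difference 0.30, SE 0.13, unadjusted p = 0.0504). Col6a2 read 7.68, 7.72 and 7.45 against 8.13, 7.64 and 7.67, where mutant 1 alone stood above the controls (difference 0.20, SE 0.16, adjusted p = 0.749). Within each array Col6a3 exceeded Col6a1 by 0.51, 0.44 and 0.50 in controls and by 0.75, 0.78 and 0.74 in mutants. This offset between probe sets did not overlap between the groups (means 0.48 and 0.76), though neither gene passed limma's test. Against Col6a2 the offset was 0.82, 0.59 and 0.69 in controls and 0.91, 1.14 and 1.18 in mutants. Of 12 offsets between partner chains, 10 overlapped between groups, such as those of Col1a1 to Col1a2 (means -0.48 and -0.47) and of Col4a1 to Col4a2 (0.50 and 0.49). Both offsets without overlap involve Col6a3, the gene with the largest difference, so they are not separate observations. How often offsets between other genes separate the groups was not computed. The offsets were chosen after values were seen and carry no test. Col6a4, Col6a5 and Col6a6 encode chains that can take the place of Col6a3, and they differed by 0.062, 0.049 and 0.20. Only Col6a6 of these had groups that did not overlap (adjusted p = 0.547). For its second row the control values were 4.57, 4.40 and 4.28 and the mutant values 4.52, 4.42 and 4.40, which overlap.

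The 7 collagens of cartilage stayed around 0, with 5 above and 2 below and a median of 0.037. Col2a1, the main cartilage fibril, read 6.34, 6.03 and 6.00 in controls and 6.32, 6.13 and 6.20 in mutants, with control 1 highest (difference 0.092, interval -0.19 to 0.38). Col10a1, known from hypertrophic chondrocytes, spread most within controls, reading 7.14, 6.16 and 6.67 against 6.76, 6.50 and 6.57 (difference -0.046, interval -0.62 to 0.53). Col9a1, Col9a2 and Col9a3, whose product coats cartilage fibrils, differed by 0.036, -0.0043 and 0.042. Col11a1 and Col11a2, of the fibril core, differed by 0.037 and 0.055. No cartilage collagen had groups that did not overlap, and the adjusted p ran from 0.878 to 0.997. The interval of Col10a1 was the widest of the class, followed by that of Col9a2 (-0.45 to 0.44), and that of Col9a1 was the narrowest (-0.20 to 0.27). Differences within a gene's own interval are not excluded by these arrays. The class median was -0.069 without control 2 and 0.15 without control 1.

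Non-collagen cartilage markers differed between arrays of the same group. Acan, the cartilage proteoglycan, read 5.95 in control 1 and between 4.29 and 4.55 on the other 5 arrays, close to the lower quartile of all rows on the arrays (4.42 to 4.50). Matn1 and Cnmd, which also define cartilage, stayed at or below 4.58 on every array. Others of the list were bright. Chad, chondroadherin, read 11.8 to 12.1 in controls and 11.9 to 12.6 in mutants, with a difference of 0.41 (SE 0.18, unadjusted p = 0.0539, limma adjusted p = 0.508), and Cytl1, a cytokine-like gene, read 7.82 to 10.9 in controls and 8.21 to 9.49 in mutants, highest in control 1 (difference -0.52). The 11 markers averaged 6.46 in control 1, 5.57 and 5.76 in the other controls and 5.72 to 5.84 in mutants, and 2 of 11 were above 0. Among the cartilage collagens Col9a1 and Col11a1 were dimmest, with control means of 4.80 and 5.03, whereas the other 5 had control means of 6.13 to 6.66, above the array medians (5.89 to 5.95). Presence calls were not used, so whether the dimmest stood above background was not tested.

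**Figure D3:**
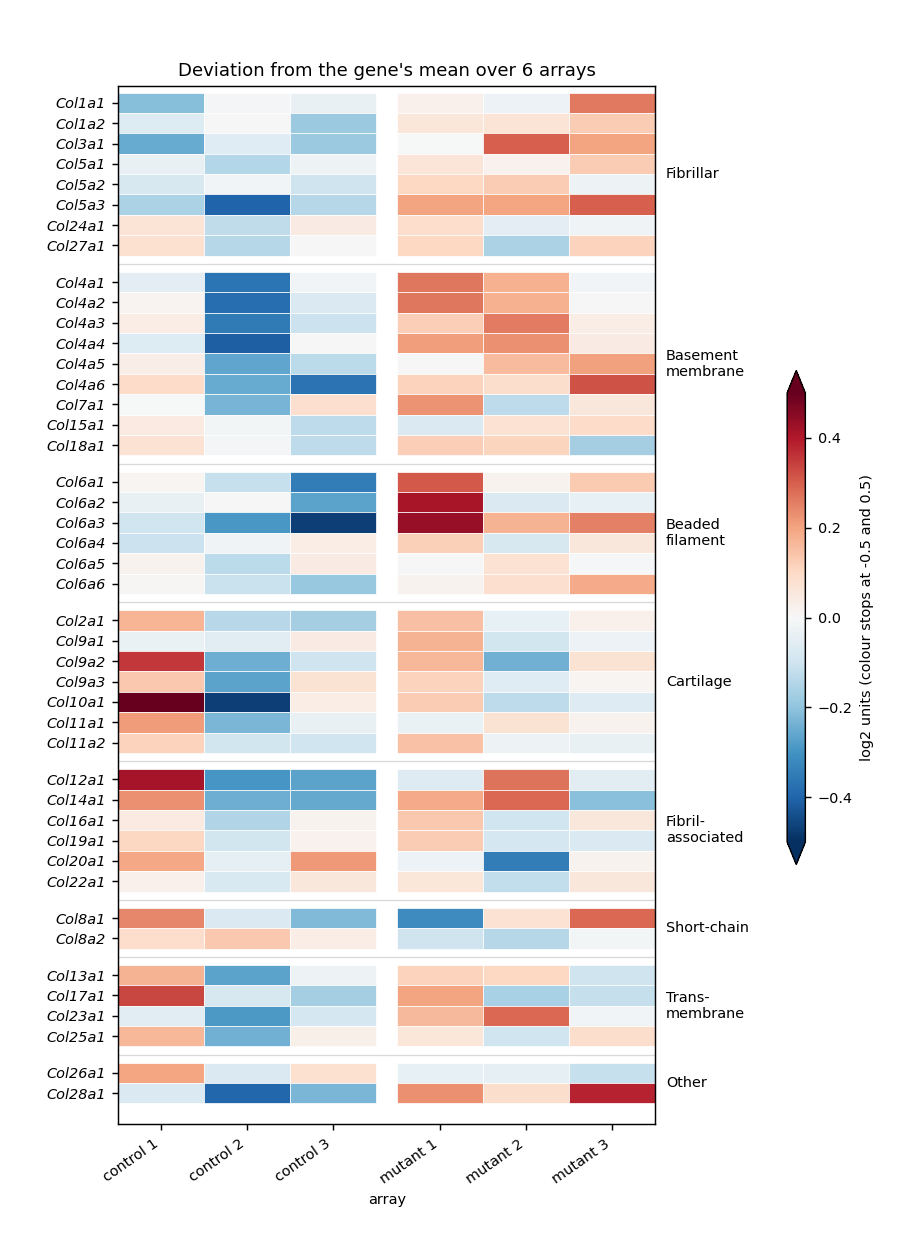
Colour gives each collagen gene's deviation from its own mean over the 6 arrays, in log2 units (red above, blue below), with arrays in columns and genes by class in rows. Control 2 is blue through the type IV chains, control 1 is red for Col12a1 and for 6 of the 7 cartilage genes, all but Col9a1, and mutant 1 is red for Col6a1 to Col6a3.

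Fibril-associated collagens sit on fibril surfaces or at tissue junctions. They split evenly, 3 above 0 and 3 below, with a median of 0.029, and none reached an unadjusted p under 0.05. Col14a1, which regulates fibril assembly, read 8.11, 7.63 and 7.62 in controls and 8.07, 8.16 and 7.67 in mutants (difference 0.18, SE 0.19). Col12a1, of dense connective tissue, read 6.65, 5.93 and 5.96 against 6.17, 6.50 and 6.18, with control 1 highest of all (difference 0.10, SE 0.21). Both genes were high in control 1, unlike in the other controls. Col20a1 had the lowest difference of the 44 genes, -0.24 (interval -0.56 to 0.075, adjusted p = 0.617), with overlapping groups. Col16a1 (0.060), Col19a1 (-0.022) and Col22a1 (-0.0027) lay close to 0. No row naming Col21a1 was used here.

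The short-chain collagens of type VIII form lattices in vessel walls. Col8a2 was the gene whose mutants all lay below the controls. It read 5.895, 5.94 and 5.84 in controls and 5.70, 5.66 and 5.79 in mutants (difference -0.17, SE 0.078, unadjusted p = 0.0654, adjusted p = 0.536). Its partner Col8a1 spread widely in both groups, from 6.55 to 7.02 in controls and from 6.46 to 7.06 in mutants (difference 0.034, interval -0.42 to 0.49). Endothelial markers averaged 8.73 to 9.32 in controls and 8.63 to 9.39 in mutants, with 1 of 6 above 0.

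Transmembrane collagens are cell surface proteins with a collagenous outer part. Col23a1 read 6.79, 6.56 and 6.76 in controls and 7.01, 7.14 and 6.83 in mutants, without overlap. Its difference of 0.29, or 1.22-fold (SE 0.11), had an unadjusted p = 0.0408 and a limma adjusted p = 0.475. Col17a1, part of the hemidesmosome that ties basal cells to the basement membrane, read 6.09, 5.68 and 5.59 against 5.96, 5.60 and 5.64. Control 1 and mutant 1 were highest, and the difference was -0.054 (SE 0.17). Basal cell markers averaged 7.09, 6.63 and 6.02 on the control arrays and 7.49, 6.25 and 6.97 on the mutant arrays. They too were highest in control 1 and mutant 1 of their groups. Unlike Col17a1, 5 of 7 were above 0, with a median of 0.25. Their part in Col17a1 was not tested. Col13a1, which acts at neuromuscular junctions, differed by 0.077 and Col25a1, which acts in motor axon growth, by 0.032.

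The remaining collagens were Col28a1 and Col26a1. Col28a1, a collagen of peripheral nerve, read 5.33, 5.01 and 5.18 in controls and 5.64, 5.50 and 5.79 in mutants. All mutants were above all controls, by 0.47 on average, or 1.38-fold with an interval of 1.13 to 1.69 (SE 0.12, unadjusted p = 0.00705, limma adjusted p = 0.282). Col28a1 passed in the added setting without control 1 and mutant 2 (difference 0.62, adjusted p = 0.0472), in which 963 of all 19938 genes passed. Schwann cell markers, of which 4 were measured, had mean levels of 5.96 to 6.75 in controls and 6.12 to 6.36 in mutants, with 2 of 4 above 0, and Sox10, which defines those cells, read 5.98 to 6.06 in controls and 5.80 to 5.99 in mutants. Col26a1 differed by -0.14 (SE 0.094, adjusted p = 0.705).

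Genes that make, cross-link, cut, bind or sense collagen, or inhibit its cutting, were followed as 5 further lists. None of their 55 measured members passed limma's adjusted test (0 of 55, against 0.266% of all genes), and 5 (9.09%) had an unadjusted p under 0.05, no larger a share than the 10.1% of all genes. Higher in mutants were 3 of them, and 2 were lower. The genes named from these lists are therefore given as values and do not set the lists apart. In the list of synthesis and modification 14 of 18 genes were above 0, with a median of 0.12. P3h2, a prolyl 3-hydroxylase that acts chiefly on basement membrane collagen, read 8.05, 7.73 and 7.86 in the controls and 8.28, 8.62 and 8.53 in mutants. The groups did not overlap, and the difference was 0.60, or 1.51-fold (SE 0.13, unadjusted p = 0.00282, adjusted p = 0.201). It passed with array weights (adjusted p = 0.0477), a fit that leaned most on control 3 and mutant 3. The next by p were Colgalt1 (-0.24) and Colgalt2 (0.24), which add galactose to collagen, and the prolyl 4-hydroxylase subunit gene P4ha1 (0.37), with adjusted p of 0.566, 0.59 and 0.65.

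Cross-linking and processing genes were all above 0 (9 of 9, against 54.6% of all genes), with a median of 0.12. Relative to each gene's mean over all arrays, the median gene of this list stood at 0.068 in control 1. It stood at -0.15 and -0.13 in the other controls and at 0.084, 0.074 and 0.073 in the mutants. As for the collagens, control 1 lay with the mutants, so the count rested in part on the other controls. Lox, the lysyl oxidase that starts cross-links in collagen and elastin, read 7.68, 7.40 and 7.91 in controls and 8.32, 8.46 and 8.10 in mutants. Its difference was 0.63, or 1.55-fold with an interval of 1.19 to 2.01 (SE 0.16, unadjusted p = 0.00615, adjusted p = 0.27). The related Loxl1, known for elastin, read 8.70, 8.45 and 8.86 against 9.03, 9.07 and 9.10 (difference 0.40, SE 0.12, unadjusted p = 0.0132, adjusted p = 0.345). For both genes every mutant exceeded every control. Loxl4 (0.22) and the procollagen proteinase gene Bmp1 (0.14) had larger p.

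Breakdown genes had a median of 0.027, with 8 of 13 above 0. This list also holds the Timp genes, which inhibit metalloproteinases, so its count and median give no direction of breakdown. Mmp9, a gelatinase made largely by neutrophils and macrophages, read 6.66, 6.83 and 7.02 in controls and 6.14, 6.33 and 5.91 in mutants. Each mutant was below each control, by 0.71 log2 units on average (difference -0.71, SE 0.14, unadjusted p = 0.00209, adjusted p = 0.184). Mmp9 passed with array weights (difference -0.90, adjusted p = 0.0311), where control 3 and mutant 3 weighed most. It also passed without control 1 and mutant 2 (-0.90, adjusted p = 0.0208), where 963 of all 19938 genes passed. Mmp14, the membrane-bound collagenase, differed by 0.39, Mmp3 by -0.41 and Mmp13 by 0.13. Collagen receptors had a median of -0.098 with 3 of 8 above 0, led by the integrin subunits Itgb1 (0.24) and Itga2 (-0.47), followed by Itga10 (-0.17) and Itga11 (-0.13).

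Of the fibril-binding proteoglycans, 3 of 7 were above 0, with a median of -0.052. Lum, lumican, which spaces fibrils, read 8.65, 8.41 and 7.72 in controls and 7.28, 7.96 and 7.37 in mutants. Control 3 fell within the mutant range, and the difference was -0.72 (SE 0.28, unadjusted p = 0.041, adjusted p = 0.475). Dcn, decorin, differed by -0.29, Ogn by 0.21 and Fmod by -0.20. Lum and Dcn are also among the non-collagen fibroblast markers given above, so these lists are not separate observations.

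**Figure D4:**
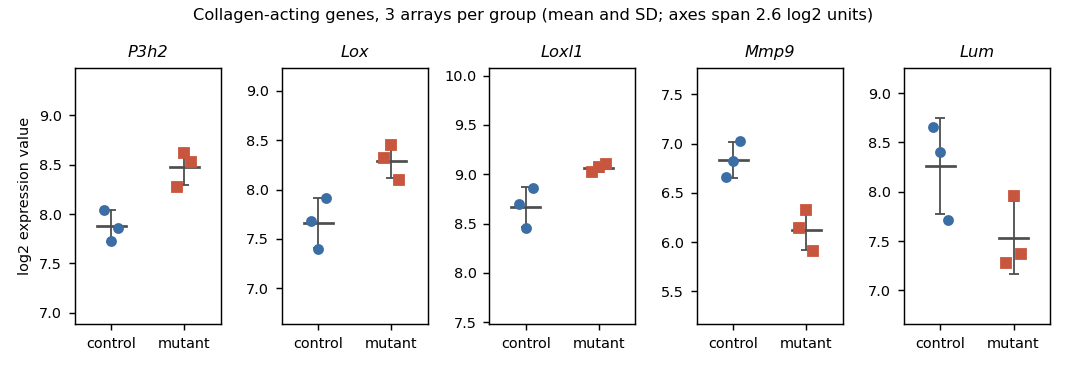
Log2 values of the 5 collagen-acting genes at an unadjusted p under 0.05, with circles for controls, squares for mutants, horizontal bars for means and whiskers for SD (3 arrays per group). P3h2, Lox and Loxl1 are higher in every mutant than in every control, Mmp9 is lower, and Lum overlaps.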

How the data were processed

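The values deposited by the authors are on a log2 scale and cover 6 Affymetrix mouse gene arrays, 3 per group. RMA, oligo and limma are named in the submitters' processing notes. Tool versions, a genome build and joint normalisation of the arrays are not stated in the labels. RMA compresses differences of dim probe sets. Neither presence calls nor scan dates entered the analysis, so background and batch were not tested. The labels do not say that samples of a group came from separate mice, so p-values rest on a spread that may be technical. No pair of arrays was identical (SD of differences at least 0.238).

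The platform annotation named 1 gene for 21789 of 35556 rows. limma 3.58.1 (R 4.3.3; lmFit, eBayes, two-sided, genotype as the only term, no filter) was fitted over 19938 genes, with p adjusted by Benjamini and Hochberg at a threshold of 0.05. Intervals are 95%, from limma's moderated t. On simulated data (mutant against control, 3 arrays each, 19938 genes) it called 84% of 2-fold and 99% of 8-fold differences, with 9 calls among unchanged genes. The simulated noise was independent between genes, without shifts that many genes share. Every simulated difference exceeded the largest collagen difference (0.58), so these shares do not tell how often differences of the collagens' size would be called. Array number limits precision. Every collagen is named; of the other collagen-related lists up to 4 members by p are. Members and lists were chosen with earlier results of these data known. Each result was recomputed with a further quantile normalisation, with arrays centred on their medians, with the dimmest 40% of genes removed, a replicate block, array weights, mean of a gene's rows, an intensity trend and leaving out each array. Dropping controls 2 and 3, or control 1 with mutant 2, was added once values had been seen. Promoters are RefSeq's (GRCm38.p6). Tables and figures were made in Python 3.11.15 with pandas 2.3.3, scipy 1.17.1 and matplotlib 3.10.9.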

Additional observations from a re-analysis of the deposited data

How the results depend on the processing

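The count of collagen genes past the threshold was 0 as planned and stayed 0 in the 13 other settings fixed at the start except with array weights, where it was 1 (Col6a3). It was 2 of 44 without control 1 and mutant 2 (Col6a3 and Col28a1), no larger a share than the 963 of 19938 over all genes. The collagen-related lists counted 0 as planned, 2 with array weights and 2 of 55 without control 1 and mutant 2. The last was again no larger a share than over all genes. Over all genes the count was 53 as planned, 291 with array weights, 82 with an intensity trend, 0 with controls 2 and 3 removed, 963 without control 1 and mutant 2, and it ranged from 9 (without control 2) to 388 (without control 1) when single arrays were left out. With the replicate number as a block it was 0, and 0 for the collagens. Deviations of same-numbered samples from their group means had correlations of 0.136, -0.091 and -0.04. Those of differently numbered samples ran from -0.204 to 0.176. With 3 arrays per group these values show no pairing by number and cannot exclude one. Of the 44 collagen genes, 26 kept their sign in every one of the 13 settings that held them, 23 above 0 and 3 below, including all 7 at an unadjusted p under 0.05. Some of these settings could not change a sign. The filter on dim genes, the replicate block and the intensity trend leave a gene's difference as it was. The mean of a gene's rows alters it only for genes with a second row. Where groups do not overlap, leaving out a single array cannot change the sign either. Kept signs are thus a description and no separate support. The filter on dim genes kept 33.

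The median collagen difference of 0.085 ranged from 0.047 to 0.16 without single arrays, and was -0.0027 with controls 2 and 3 removed and 0.18 without control 1 and mutant 2. The fibrillar median of 0.16 was 0.19 with median centring and ranged from 0.13 to 0.19 without single arrays. Without controls 2 and 3 the medians were -0.13 for cartilage, 0.091 for basement membrane, -0.13 for fibril-associated, -0.14 for transmembrane and 0.023 for the 2 other collagens. Without the lowest 40% of genes the transmembrane median was 0.29 and the other 2 collagens gave -0.14, since 1 gene of each was left. Signal over background was not assessed, since no presence calls were used.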

Other observations

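Both genes with a second row had it at another level. For Col6a5 the second row averaged 5.03 over the 6 arrays, beside 5.42 for the row used, and read 4.88, 4.97 and 4.85 in controls and 4.95, 5.56 and 4.98 in mutants, with mutant 2 apart from the other arrays. For Col6a6 the second row averaged 4.43 beside 6.07.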
